A study of Mus musculus with 9 samples.

Results

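The genes described here encode the constitutive proteasome, the protease complex that most cells make without induction. They were taken from the table of read counts by gene symbol: the letters Psm, one of a, b, c or d, and a digit, leaving out the immunoproteasome genes Psmb8, Psmb9 and Psmb10 and symbols of pseudogenes. The rule found 37 of 34092 gene rows. Of these, 33 encode parts of the complex, 16 of its core and 17 of its cap, and 3 more, Psmd5, Psmd9 and Psmd10, encode chaperones that help to assemble the cap. The symbol Psmc3ip also matched, but the gene encodes a partner of recombinases in meiosis and no proteasome subunit.

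The proteasome degrades proteins that carry ubiquitin chains. Its core, the 20S particle, is a barrel of alpha rings, which form the gate, and beta rings, which hold the proteolytic sites. The 19S particle caps the barrel: its base has a ring of ATPases that unfold the substrate, and its lid removes the ubiquitin. In T cells, degradation by the proteasome sets the life span of many signalling proteins, among them the inhibitors of NF-kB, and immune cells can exchange the catalytic beta subunits for the inducible ones of the immunoproteasome.

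RNA came from regulatory T cells, which restrain immune responses and depend on the transcription factor Foxp3, sorted from mice and taken at rest. All mice carried a green fluorescent protein reporter in the Foxp3 gene. The wild-type group (WT) had the genotype Foxp3gfp, and the CNS2KO group had Foxp3deltaCNS2-gfp, which also lacks CNS2, a conserved noncoding element inside Foxp3. The labels list 6 WT and 3 CNS2KO samples, but 1 sample number occurs in both groups and its columns hold the same counts, so 5 WT and 2 CNS2KO libraries were compared. The labels give no age and no sorting gate, and they do not tie a sample to an animal. The p-values therefore describe the scatter of these libraries alone, part of which may be technical. In bulk RNA, fewer cells of a type and less RNA per cell cannot be told apart.

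Reads on genes ranged from 16557424 to 21836578 per library, and the 2 CNS2KO libraries were the deepest. The markers of regulatory T cells Foxp3, Il2ra, Ctla4, Ikzf2 and Tnfrsf18 summed to 3746 to 4393 CPM (reads on a gene relative to the library's size, after TMM scaling) in the WT libraries and to 3896 and 4294 CPM in the CNS2KO libraries. Foxp3 itself had 488 ± 78.9 CPM (SD, n = 5) without the deletion and 452 ± 15.9 CPM (SD, n = 2) with it, and since CNS2 is noncoding this does not check the genotype labels. Myeloid markers summed to at most 94.8 CPM and those of CD8 T and NK cells to at most 59.1 CPM, with Ncr1 at 0 reads in all libraries. B cell markers summed to 977 to 1351 CPM, of which the immunoglobulin gene Ighm made up 939 to 1308 CPM.

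Proteasome genes are known to be switched on together by the transcription factor Nfe2l1 through antioxidant response elements, and other shared promoter elements have been described for housekeeping genes. Promoter windows of 300 bases, 250 before the start site and 50 after it, could be matched by symbol for 30 of the 37 genes in the RefSeq table of build GRCm38.p6. The antioxidant element core TGACNNNGC, searched on both strands, was present in 5 of the 30, or 16.7%, against 12.4% of all 32851 windows and 14.4% of the windows of genes tested here. The CCAAT box, searched in the same way, was present in 13 of 30, or 43.3%, against 37.4% of all windows. These 2 motifs were chosen together with the gene lists, and 5 further ones after the files had been seen. Among the latter, the ETS core CCGGAAG was present in 11 of 30 (36.7%), against 8.86% of all windows and 17.7% of those of tested genes, and the binding motif of nuclear respiratory factor, TGCGCA and GCGC with any base between them, in 4 of 30 (13.3%), against 2.44% and 5.22%. The palindrome TGACGTCA was in 0 of 30, against 1.79% of all windows and 2.97% of those of tested genes. The longer antioxidant element TGACNCAGC was in 1 (3.33%), against 1.53% and 1.51%. The looser motif GCGC, 2 bases of any kind and GCGC, which overlaps that of nuclear respiratory factor, was in 6 (20%), against 6.23% and 13.0%. The 30 genes had 32 windows and a gene was counted if any of its windows matched, while the other shares count single windows. The 30 include Psmb11, which was not tested, and Psmc3ip, which is no subunit. Both are counted for the CCAAT box, and Psmc3ip for the ETS core. A match is a string of letters and not a shown binding site.

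The 5 stretches with an antioxidant core are printed here because they include the catalytic subunits Psmb5 and Psmb6. The capitals mark the match, all stretches lie before the start site, and each reads 5′ to 3′ on the gene's strand. In Psmc6 and Psmd12 the motif is on the other strand, so the capitals show its reverse complement.
Psmb5, chr14:54618014-54618062, minus strand: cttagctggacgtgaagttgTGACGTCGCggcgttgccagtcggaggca
Psmb6, chr11:70525328-70525356, plus strand: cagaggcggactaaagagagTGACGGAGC
Psmc6, chr14:45329577-45329625, plus strand: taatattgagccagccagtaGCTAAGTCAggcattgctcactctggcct
Psmd9, chr5:123228139-123228187, plus strand: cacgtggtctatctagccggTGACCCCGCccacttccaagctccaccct
Psmd12, chr11:107479278-107479309, plus strand: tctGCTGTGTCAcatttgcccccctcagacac

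The 4 stretches with the nuclear respiratory factor motif are shown because the estimated fold changes of their genes differ in sign. Psmc4 had the lowest fold change of the 35 tested genes, and Psma2, Psma3 and Psma4 had positive ones. The 95% intervals of all 4 include 0, and a link between motif and fold change was not tested. In Psma2 the motif matches on both strands with an offset of 1 base, and the match on the gene's strand is in capitals.
Psma2, chr13:14613094-14613144, plus strand: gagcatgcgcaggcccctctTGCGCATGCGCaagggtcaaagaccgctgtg
Psma3, chr12:70974524-70974574, plus strand: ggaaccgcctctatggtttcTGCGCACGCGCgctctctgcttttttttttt
Psma4, chr9:54950777-54950827, plus strand: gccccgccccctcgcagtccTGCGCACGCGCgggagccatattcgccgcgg
Psmc4, chr7:28050232-28050282, minus strand: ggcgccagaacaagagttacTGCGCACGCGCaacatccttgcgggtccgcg

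Most proteasome transcripts were high in the same libraries and low in the same libraries. The 37 genes summed to 5102 CPM in WT 398, 6951 in WT 402, 5957 in WT 405, 5420 in WT 1032 and 6784 in WT 1037, and to 7741 CPM in CNS2KO 399 and 6411 in CNS2KO 408. CNS2KO 399 thus stood above every WT library and CNS2KO 408 inside the WT range. After a filter on low counts, 35 of the 37 genes remained, and Psma8 and Psmb11 did not. Among the 5 WT libraries, the highest value was in WT 402 or WT 1037 for 28 of the 35 genes, and the lowest in WT 398 or WT 1032 for 32 of 35. Over all 14424 genes that passed the filter these shares were 44.8% and 41.8%. The libraries in this count were picked after their values were seen. The genes outside both patterns were Psmb4, Psmd2 and Psmd3. This order of libraries was not particular to the members. Their median log2 deviation from the WT mean was -0.21, -0.17, 0.18 and 0.18 in WT 398, 1032, 402 and 1037. For the 5 chaperones of core assembly it was -0.21, -0.17, 0.23 and 0.36 in the same libraries. Over the 53 other genes tested of the ubiquitin and proteasome system it was -0.01, -0.10, -0.005 and 0.10. The median coefficient of variation among WT libraries was 16.6% over the 35 genes, against 20.1% over the 7312 genes in the same range of mean CPM. Above 100 CPM the order turned, with 16.6% over 27 members against 14.8% over 2141 genes. Psmd2, a scaffold of the base that also binds ubiquitin, varied least, at 3.09%, and Psmc3ip most, at 30.7%.

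**Figure D1:**
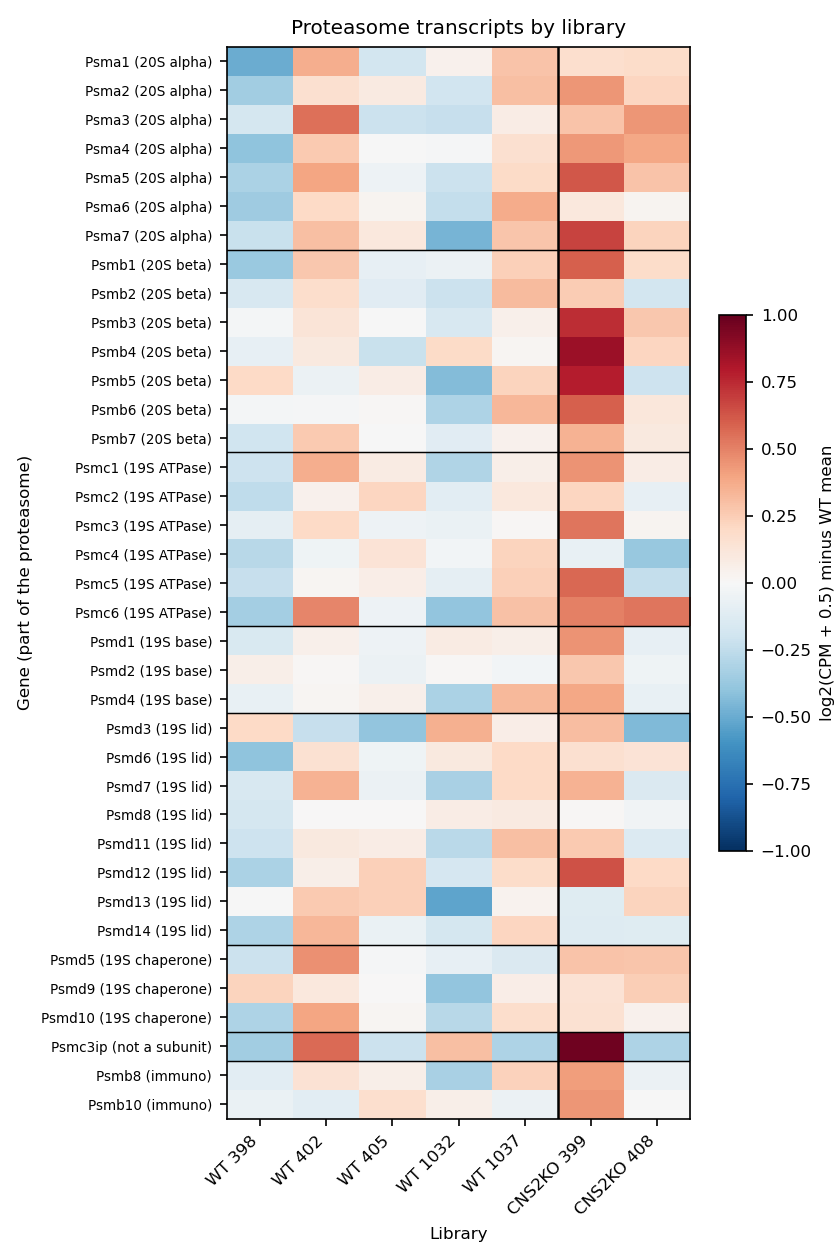
Level of each proteasome gene that passed the filter, and of Psmb8 and Psmb10 (rows), in each library (columns), as log2(CPM + 0.5) minus the mean of the 5 WT libraries; red is higher and blue lower. WT 402 and WT 1037 are red and WT 398 and WT 1032 blue in most rows, and CNS2KO 399 is the reddest column. It has the highest value of all 7 libraries in 20 of the 35 genes, Psmb8 and Psmb10 not counted, against 18.9% of all genes tested.

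No proteasome gene changed between the genotypes at a false discovery rate of 0.05. edgeR's quasi-likelihood test called 0 of the 35, where 0% of all 14424 genes tested were called. At an unadjusted p under 0.05 by that test, 2 members were higher in CNS2KO (1.54% of all genes) and 0 lower (0.964% of all genes). DESeq2, which also called 0, had 4 higher and 0 lower, beside 3.44% of all genes in either direction. In either direction 2 members passed this p in the edgeR fit of all 7 libraries, beside 2.50% of all genes. Without CNS2KO 399 it was 0 members (1.66% of all genes), and without CNS2KO 408 it was 11 (10.6%). Without WT 402 it was 9 (2.996%), without WT 1037 it was 5 (2.71%), and without WT 405 it was 1 (1.77%). With no filter on low counts it was 7 (4.48%). Of the 35 genes, 31 had a positive log2 fold change, against 47.4% of all genes tested. The median over the 35 was 0.21 on the log2 scale, and the median over all genes -0.03. Both CNS2KO libraries lay above every WT library in 4 members, Psma4, Psmb3, Psmb4 and Psmc6 (3.76% of all genes), and below every WT library in 0 (3% of all genes). When counts of these 7 libraries were simulated, 23 of 100 genes given a 2-fold change were called, and 65 of 100 given a 4-fold change. Those genes were drawn at random from all genes above a low level, not from the members. The members' median coefficient of variation among WT libraries was 16.6%, against 30.4% over all genes, so these shares need not hold for them. Smaller changes were not simulated.

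**Figure D2:**
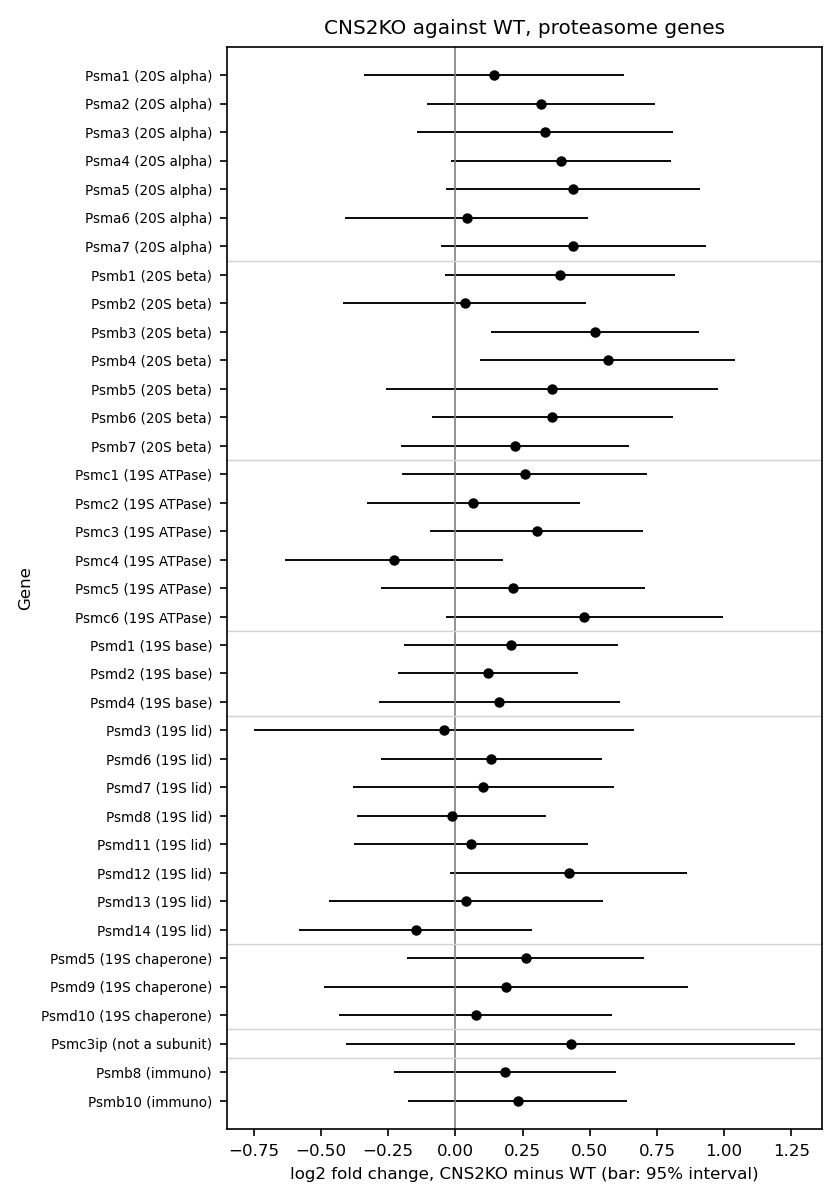
Log2 fold change of CNS2KO minus WT (x axis) with its 95% interval (bars) for each of the 35 proteasome genes and for Psmb8 and Psmb10, from 5 WT and 2 CNS2KO libraries. All points of the alpha and beta rings lie to the right of 0, and only the intervals of Psmb3 and Psmb4 leave out 0, before any adjustment for the number of genes.

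The median rested largely on CNS2KO 399. Without it the median was 0.06 with 21 of 35 positive, and without CNS2KO 408 it was 0.33 with 32 of 35 positive. The median over all genes tested in these fits was -0.04 without CNS2KO 399 and -0.12 without CNS2KO 408. Taken one by one, CNS2KO 399 lay above every WT library in 21 of the 35 genes (20.1% of all genes), and CNS2KO 408 in 5 (12.8% of all genes). CNS2KO 399 also held the most RNA of red blood cell markers, with the 6 erythroid markers at a sum of 156 CPM, and all 5 of them that passed the filter had positive fold changes. In CNS2KO 408 this sum was 31.2 CPM, and in the WT libraries 6.84 to 27.6 CPM. CNS2KO 399 was also the deepest library, and the part of either in the proteasome values was not tested.

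**Figure D3:**
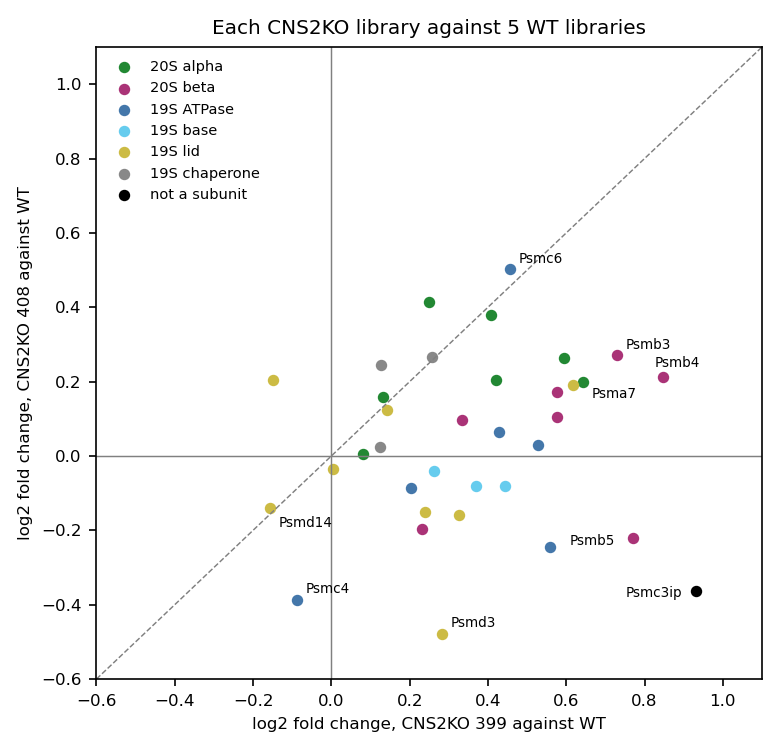
Log2 fold change against the 5 WT libraries of CNS2KO 399 alone (x axis) and of CNS2KO 408 alone (y axis) for the 35 proteasome genes, coloured by part of the complex; the dashed line marks equal values. All 7 alpha ring genes are above 0 on both axes, while the base subunits Psmd1, Psmd2 and Psmd4 are above 0 for CNS2KO 399 and below 0 for CNS2KO 408.

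The alpha ring forms the outer rings of the core and its gate, and all 7 of its tested genes had positive fold changes, with a median of 0.33. Psma3 had the highest mean CPM of the ring. It stood at 256 CPM in WT 398, 424 in WT 402, 249 in WT 405, 247 in WT 1032 and 305 in WT 1037, and at 353 in CNS2KO 399 and 393 in CNS2KO 408. WT 402 was the highest of the 7 libraries, so the groups overlapped (log2 fold change 0.33, SE 0.22). Psma4 stood at 158, 251, 208, 207 and 234 CPM in WT 398, 402, 405, 1032 and 1037, and at 282 and 274 CPM in CNS2KO 399 and 408. Its CNS2KO libraries lay close together and both above the WT maximum. On the log2 scale the difference was 0.39 (SE 0.19, 95% interval -0.02 to 0.80), with an unadjusted p of 0.058 and an adjusted p of 1 by edgeR's quasi-likelihood test.

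Psma5 had the lowest level of the tested alpha genes, at 115, 190, 139, 124 and 165 CPM in the WT libraries in the same order, and at 222 and 175 CPM in CNS2KO 399 and 408. Only CNS2KO 399 exceeded the highest WT library (log2 fold change 0.44, SE 0.22, or 0.26 without CNS2KO 399). Psma7 was alike, with 370 CPM in CNS2KO 399 and 271 in CNS2KO 408 against a WT range of 168 to 286 CPM (log2 fold change 0.44, or 0.20 without CNS2KO 399). Psma6 had 255 ± 53.0 CPM (SD, n = 5) in WT, against 263 ± 10.9 CPM (SD, n = 2) in CNS2KO, the smallest fold change of the ring, 0.04. Psma1 and Psma2 had fold changes of 0.14 and 0.32. Leaving out CNS2KO 399 took the ring's median to 0.20, and leaving out CNS2KO 408 to 0.41, with 7 of 7 positive both times. Psma6 was then at only 0.004 without CNS2KO 399. These 7 genes varied together among the WT libraries, so their signs are not separate observations. Psma8, an alpha subunit of the testis, had at most 4 reads in any library, which puts it near or below the floor of 3 counts (0.142 to 0.182 CPM per library).

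The beta ring carries the active sites, in Psmb5 (cleavage after hydrophobic residues), Psmb6 (after acidic residues) and Psmb7 (after basic residues), and 4 more subunits without activity. All 7 tested genes had positive fold changes, with a median of 0.36 that became 0.10 without CNS2KO 399 and 0.58 without CNS2KO 408. Psmb3, one of the inactive subunits, had the smallest p of all members. It stood at 147, 164, 149, 134 and 155 CPM in WT 398, 402, 405, 1032 and 1037, and at 249 CPM in CNS2KO 399 and 180 CPM in CNS2KO 408. Both CNS2KO libraries lay above the narrow WT range. On the log2 scale the difference was 0.52 (SE 0.18, 95% interval 0.13 to 0.91), with an unadjusted p of 0.0127 and an adjusted p of 1 by edgeR's quasi-likelihood test. Without CNS2KO 399 it was 0.27.

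Psmb4 had the largest fold change of the members, 0.57 (SE 0.22, 95% interval 0.09 to 1.04), with an unadjusted p of 0.023 and an adjusted p of 1 by the same test. Its levels were 64.9, 73.2, 58.6, 78.3 and 69.3 CPM in the WT libraries in the same order and 124 and 79.5 CPM in CNS2KO 399 and 408. CNS2KO 408 lay only just above WT 1032, and without CNS2KO 399 the fold change was 0.21. Psmb1, the most abundant member by CPM, stood at 345, 540, 423, 430 and 529 CPM in WT and at 678 and 509 CPM in CNS2KO, where again only CNS2KO 399 was outside the WT range (log2 fold change 0.39, or 0.17 without CNS2KO 399). Psmb2, at 0.04, had the smallest fold change of the ring.

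The 3 catalytic genes did not move alike in the 2 CNS2KO libraries. Psmb5 had the lowest CPM of the ring, with 57.4, 47.9, 52.7, 36.8 and 58.2 CPM in the WT libraries in the same order. CNS2KO 399 had 86.6 CPM, above all of them, and CNS2KO 408 had 43.3 CPM, below all but WT 1032. The log2 fold change was 0.36 (SE 0.28), and it turned to -0.22 without CNS2KO 399. Psmb6 stood at 149, 150, 152, 122 and 191 CPM in WT and 229 and 164 CPM in CNS2KO, with CNS2KO 408 inside the WT range (0.36, SE 0.20, or 0.10 without CNS2KO 399). Psmb7 stood at 73.9, 102, 84.7, 78.2 and 87.5 CPM in WT and 108 and 90.9 CPM in CNS2KO (0.22, SE 0.19, or 0.10 without CNS2KO 399). Psmb11, the catalytic subunit of thymic cortical epithelium, had 1 read each in WT 1037 and CNS2KO 408 and none in the other libraries.

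Within the cap, the 6 ATPases of the base, Psmc1 to Psmc6, pull the substrate into the core. Their fold changes were positive in 5 of 6 with a median of 0.24, and Psmc6 and Psmc4, the 2 with the highest CPM, had the largest and the lowest. The median was -0.03 without CNS2KO 399 and 0.44 without CNS2KO 408. Psmc6 stood at 159, 282, 194, 153 and 245 CPM in WT 398, 402, 405, 1032 and 1037, and at 284 and 292 CPM in CNS2KO 399 and 408. Both CNS2KO libraries lay above the WT maximum, by little over WT 402 (log2 fold change 0.48, SE 0.24, 95% interval -0.04 to 0.99). Psmc4 stood at 189, 222, 252, 225 and 267 CPM in the same WT libraries and at 218 and 176 CPM in CNS2KO 399 and 408. Here CNS2KO 408 was below every WT library and CNS2KO 399 within their range (log2 fold change -0.23, SE 0.19, 95% interval -0.63 to 0.18). It had the smallest p of the 4 members with a negative fold change, 0.243 unadjusted and 1 adjusted by edgeR's quasi-likelihood test.

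Psmc5 had the lowest CPM of the ATPases, with 123, 147, 152, 136 and 171 CPM in WT and 215 and 122 CPM in CNS2KO. One CNS2KO library was the highest and the other the lowest of the 7, and the fold change of 0.21 became -0.25 without CNS2KO 399. The fold changes of Psmc3, Psmc1 and Psmc2 were 0.30, 0.26 and 0.07. Without CNS2KO 399 they were 0.03, 0.06 and -0.09. The other base subunits bind or position ubiquitin chains. Psmd2 stood at 290, 282, 267, 282 and 274 CPM in WT and 336 and 270 CPM in CNS2KO (log2 fold change 0.12, SE 0.15). Psmd4, a ubiquitin receptor, stood at 151, 162, 165, 128 and 200 CPM in WT and 209 and 152 CPM in CNS2KO (0.16, SE 0.21). Psmd1, a scaffold like Psmd2, had a fold change of 0.21, and the 3 turned to -0.04, -0.08 and -0.08 without CNS2KO 399, for Psmd2, Psmd4 and Psmd1.

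The lid removes ubiquitin through the metalloprotease Psmd14, held by Psmd7, and its other subunits serve as a scaffold. Of its 8 genes 5 had positive fold changes, with a median of 0.05 (-0.09 without CNS2KO 399 and 0.19 without CNS2KO 408). Psmd14 stood at 191, 299, 226, 209 and 275 CPM in WT 398, 402, 405, 1032 and 1037 and at 216 and 217 CPM in CNS2KO 399 and 408, inside the WT range (log2 fold change -0.15, SE 0.20). Psmd3 had the lowest CPM of the lid, with 23.4, 17.2, 15.3, 26.0 and 21.3 CPM in WT and 25.3 and 14.8 CPM in CNS2KO. Its CNS2KO libraries fell near the top and at the bottom of the 7, and the fold change was -0.04 (SE 0.32). Psmd12 had the largest fold change of the lid, 0.42 (SE 0.20; 0.19 without CNS2KO 399), with 233 and 172 CPM in CNS2KO against 120 to 177 CPM in WT. The other 5 lid genes, Psmd6, Psmd7, Psmd8, Psmd11 and Psmd13, had fold changes from -0.01 (Psmd8) to 0.13 (Psmd6).

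The chaperones of base assembly were no more apart. Psmd5 stood at 143, 228, 165, 156 and 150 CPM in the WT libraries in the same order and at 202 CPM in both CNS2KO libraries, between WT 402 and the rest (log2 fold change 0.26, SE 0.20). Psmd10, also known as gankyrin, stood at 57.7, 94.6, 72.8, 59.0 and 81.0 CPM in WT and 79.9 and 74.0 CPM in CNS2KO (0.08, SE 0.23). Psmd9 was the least abundant, with 16.1, 14.8, 13.8, 10.3 and 14.4 CPM in WT and 15.2 and 16.4 CPM in CNS2KO (0.19, SE 0.31). Psmc3ip, which is no subunit, stood at 16.1, 30.8, 17.7, 25.5 and 16.5 CPM in WT and at 40.8 and 16.5 CPM in CNS2KO, and its fold change of 0.43 (SE 0.38) became -0.36 without CNS2KO 399.

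Core and cap genes can be set against each other within a library, where no scaling between libraries enters. The reads of the 16 core genes divided by those of the 17 cap genes gave 0.894 in WT 398, 1.02 in WT 402, 0.892 in WT 405, 0.918 in WT 1032 and 0.990 in WT 1037. The ratio was 1.07 in CNS2KO 399 and 1.09 in CNS2KO 408. Both CNS2KO libraries lay above every WT library, as they did for 3.76% of all single genes tested. Their core ratios were close, but their rings were not alike: CNS2KO 399 had the higher beta ratio and CNS2KO 408 the higher alpha ratio. For the beta ring alone the ratio to the cap was 0.464 in CNS2KO 399 and 0.413 in CNS2KO 408, against 0.355 to 0.392 in WT. For the alpha ring alone it was 0.603 and 0.677 against 0.514 to 0.636, with CNS2KO 399 inside the WT range. The difference in the beta ratio between the group means was 0.0605, and it was 0.0346 without CNS2KO 399 and 0.0864 without CNS2KO 408. The core, alpha and beta ratios were all formed after the levels had been seen and carry no test. WT 402 and WT 1037, with the highest proteasome sums of the WT libraries, also had the highest ratios of them.

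**Figure D4:**
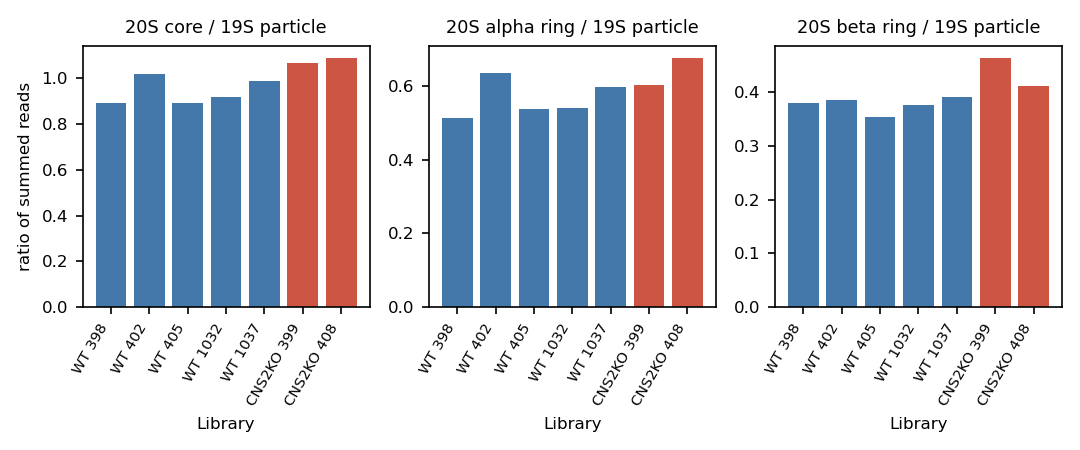
Reads of the 16 core genes (left), the 8 alpha ring genes (middle) and the 8 beta ring genes (right) divided by those of the 17 cap genes, in each library; WT bars are blue and CNS2KO bars red. In the left panel both CNS2KO bars, 1.07 and 1.09, are above the highest WT bar, 1.02.

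In the immunoproteasome, Psmb8 takes the place of Psmb5, Psmb9 that of Psmb6 and Psmb10 that of Psmb7. Psmb8 stood at 433, 516, 485, 373 and 546 CPM in WT 398, 402, 405, 1032 and 1037 and at 623 and 448 CPM in CNS2KO 399 and 408 (log2 fold change 0.19, SE 0.19). Its CPM was 7.19 to 10.8 times that of Psmb5 in every library. The log2 ratio of Psmb8 to Psmb5 was 3.22 ± 0.19 in WT (SD, n = 5) and 3.11 ± 0.37 in CNS2KO (SD, n = 2), and the two-sided exact permutation test gave p = 0.714 (adjusted p = 0.952 over the 2 pairs that had reads). Psmb10 stood at 102, 99.5, 120, 112 and 103 CPM in WT and at 145 and 106 CPM in CNS2KO. The log2 ratio of Psmb10 to Psmb7 was 0.34 ± 0.24 in WT (SD, n = 5) and 0.33 ± 0.14 in CNS2KO (SD, n = 2), with p = 0.952 by the exact permutation test and the same adjusted p. The smallest p that 21 assignments allow is 0.048 before adjustment. After adjustment over the 2 pairs, a shift in 1 pair alone could not have passed 0.05. For both pairs the difference was smaller than the spread between WT libraries. Psmb9 had 2 reads in CNS2KO 408 and 0 in the other 6 libraries, so its pair with Psmb6 could not be compared. Whether reads of Psmb9 were lost in annotation or counting was not tested.

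**Figure D5:**
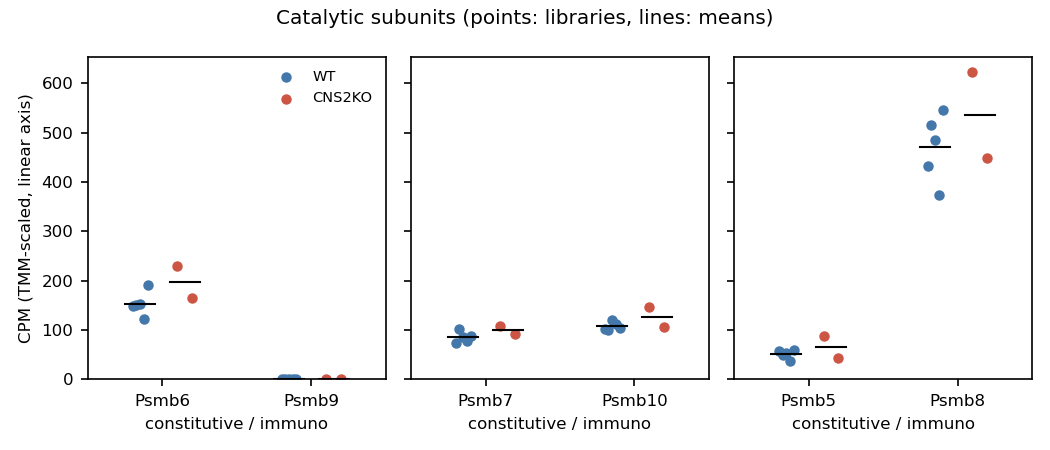
CPM of each constitutive catalytic subunit and of the immunoproteasome subunit that replaces it, with 1 point per library (5 WT in blue, 2 CNS2KO in red) and a line at each mean, on a linear axis that starts at 0. Psmb8 lies between 373 and 623 CPM, far above Psmb5 at 36.8 to 86.6 CPM, while Psmb10 and Psmb7 are of like level and Psmb9 is at the bottom.

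Levels of different genes can be compared only per length, and for this CPM was divided by the length in kilobases of the transcript that GENCODE M21 ranks as principal, or for Psmd4, Psmd8 and Psmd10 of one it ranks as an alternative. That annotation is of another build than the authors' mm9, so these levels are approximate, and this scale was added after the files had been seen. Per kilobase, Psma7 was highest in WT at 259 ± 56.6 CPM per kb (SD, n = 5), followed by Psmb1 at 258 ± 46.1 and Psma6 at 245 ± 50.8, and these 3 did not differ beyond their spread. The median was 182 CPM per kb over 7 alpha and 186 over 7 beta genes. Over the 6 ATPases it was 108, over the 3 other base genes 91.8 and over the 8 lid genes 82.6 CPM per kb. Inside the beta ring, the catalytic Psmb6 stood at 191 ± 30.8 CPM per kb, and Psmb7 at 73.5 ± 9.26 and Psmb5 at 56.3 ± 9.72, below it by more than their spread. Psmb8, at 289 ± 42.3 CPM per kb, exceeded Psmb5 on this scale as well, and Psmb10, at 81.8 ± 6.45, lay within the spread of Psmb7. In the cap, Psmd14 stood at 156 ± 29.3 CPM per kb, and Psmc4, at 160, differed from it by less than that spread. Psmd3 was the lowest tested subunit, at 9.61 ± 2.04 CPM per kb, and whether more of its reads were lost in counting was not tested. Only the chaperone Psmd9, at 5.34 ± 0.84, was lower among the 35 genes. With the longest annotated transcript in place of the principal one, Psma7 stood at 204 CPM per kb and Psma6 was the highest at 245.

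Of 54 other genes of the ubiquitin and proteasome system, 53 passed the filter, 0 passed the test, and 30 had positive fold changes (median 0.09). The subunits of the activator that opens the core from its ends, Psme1 and Psme2, stood at 0.16 and 0.51. Psme2 had 312, 367, 299, 226 and 398 CPM in WT 398, 402, 405, 1032 and 1037 and 497 and 413 CPM in CNS2KO 399 and 408, both above the WT maximum. Its unadjusted p by edgeR's quasi-likelihood test was 0.0313 and its adjusted p 1. Pomp, the chaperone that completes the core, was the other of 2 with both CNS2KO libraries above all WT libraries, beside 3.76% of all genes: 152, 207, 166, 158 and 205 CPM in WT, and 293 and 222 CPM in CNS2KO (log2 fold change 0.53, SE 0.19, unadjusted p 0.0164, adjusted p 1 by the same test). Without CNS2KO 399 the fold change of Pomp was 0.32 and that of Psme2 0.37. The 5 core chaperones had 4 positive fold changes and a median of 0.33, with Psmg2 at 0.33. Without CNS2KO 399 the list had 2 positive and a median of -0.07, with Psmg2 at 0.03, and without CNS2KO 408 the median was 0.57.

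The other lists had medians from -0.20 to 0.27. Proteins associated with the cap and shuttle factors had 6 of 11 positive (median 0.00), with Shfm1, a small subunit of the lid region, at 0.26 and the deubiquitinase Usp14 at 0.00. Of the ubiquitin genes and activating enzymes 3 of 6 were positive. The polyubiquitin gene Ubb had 2166 ± 435 CPM (SD, n = 5) in WT, against 2066 ± 614 CPM (SD, n = 2) in CNS2KO. The complex of the segregase Vcp, which extracts ubiquitylated proteins, had 2 of 6 positive (Vcp -0.04, Ufd1l 0.09). Ubxn4, a partner of Vcp, lay below every WT library in both CNS2KO libraries, with 71.3 and 75.0 CPM against 82.0 to 127.6 CPM (log2 fold change -0.37, SE 0.22), and is named after its values were seen. It alone of the 53 other genes did so, beside 3% of all genes tested. Its unadjusted p by edgeR's quasi-likelihood test was 0.119. The list of Nfe2l1, its relative Nfe2l2 and genes that process or partner Nfe2l1 had 3 of 9 positive, with a median of -0.20. Nfe2l1 itself stood at -0.36 (SE 0.46), Ngly1 at 0.22 and Sel1l at -0.20. Maff, among the positive ones, had 0 to 36 reads per library (0.09, SE 1.98). The COP9 signalosome, a relative of the lid that acts on cullins, had 7 of 9 positive with a median of 0.27 (Cops2 0.22, Cops4 0.32). No member of these lists was called, and the lists were not tested against each other.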

How the data were processed

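Regulatory T cell RNA was amplified with a SMARTer kit and sequenced from Ion Proton libraries, per the labels. Per the submitters' processing notes, the tools included BWA, STAR and edgeR and the build was mm9. The counter, its strand setting and the annotation are not given in the sources used here. Used here was the deposited table of raw counts by gene symbol; the other deposited tables were not used. Left out were 2 of its columns, which share a sample number across the groups and hold the same counts in every row. From 34097 rows, 5 summary rows of the read counter were left out, and genes held 22.0 to 23.7% of the reads in a column. Counts were tested in R 4.3.3 with edgeR 4.0.16: filterByExpr, TMM scaling, the two-sided quasi-likelihood test and Benjamini-Hochberg adjustment over 14424 genes. CPM was scaled by TMM. The limit that 3 counts set, 0.142 to 0.182 CPM, covers counting error only. Reads from unnamed processed pseudogenes could not be separated; the 3 named ones left out had at most 6 reads. The members and lists were chosen with earlier results of these data known. Values by library are given for the catalytic subunits, the highest and lowest of each sub-list by mean CPM, the 3 smallest p per direction and genes that are not general subunits; other lists name their 2 most highly expressed genes, except for a result that is not reported here. Further genes (Psma7, Psmb1, Psmb2, Psmd12 and others) are added after their values were seen. The fit was checked on simulated counts, where 0 of 13826 genes were called with no change. Alternatives were RLE scaling, DESeq2 1.42.0, no filter, 10 CPM in 2 libraries, WT numbers of 3 digits, an FDR of 0.1 and each library left out.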

Additional observations from a re-analysis of the deposited data

Results flagged for a closer look

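The 5 WT values of a gene or sum were checked 65 times for a library that stood apart, and 2 checks found one, where chance gives about 1 in 20. Both were WT 402: Psmd5, a chaperone of base assembly, stood at 228 CPM there against 165 CPM in the next library, and the sum of the 3 base assembly chaperones, of which Psmd5 is the largest, at 337 CPM against 251 CPM.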

How the results depend on the processing

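The number of proteasome genes called stayed at 0 under every alternative run. Over all genes, 0 were called by edgeR's quasi-likelihood test; dropping the filter raised this to 8, none of them a member. The members' median log2 fold change was 0.20 to 0.23 under the alternatives that kept both CNS2KO libraries and all WT libraries or only WT numbers of 3 digits, and 0.06 to 0.33 with 1 library left out, where 21 to 32 members were positive. With WT numbers of 3 digits only, the signs of Psmd3 (0.10), Psmd8 (0.044), Psmd13 (-0.10), Usp14 (0.033) and Ubb (0.11) turned; the cause was not tested. With 1 library left out, signs turned for these genes and their fold changes ranged from -0.038 to 0.14 (Psma6), -0.20 to 0.23 (Psmb2), -0.22 to 0.77 (Psmb5), -0.086 to 0.20 (Psmc2), -0.25 to 0.56 (Psmc5), -0.081 to 0.44 (Psmd1), -0.041 to 0.26 (Psmd2), -0.081 to 0.37 (Psmd4), -0.48 to 0.28 (Psmd3), -0.16 to 0.33 (Psmd7), -0.056 to 0.0095 (Psmd8), -0.15 to 0.24 (Psmd11), -0.15 to 0.21 (Psmd13), -0.36 to 0.93 (Psmc3ip), -0.067 to 0.40 (Psmb8), -0.0056 to 0.43 (Psmb10), -0.042 to 0.059 (Usp14), -0.40 to 0.20 (Ubb), -0.12 to 0.043 (Vcp), -0.083 to 0.23 (Ufd1l), -0.11 to 0.48 (Ngly1), -0.087 to 0.48 (Cops2). The difference in the log2 ratio of Psmb8 to Psmb5 ranged from -0.38 to 0.15 and that of Psmb10 to Psmb7 from -0.11 to 0.10. The CNS2KO minus WT difference in the core to cap ratio ranged from 0.122 to 0.155, in alpha ring to cap from 0.037 to 0.112 and in beta ring to cap from 0.035 to 0.086. Where a CNS2KO library was left out, the lone one was assumed to vary like the WT libraries. No paired analysis was possible because the compared groups share only 1 sample number, whose columns were not used. Genes near the floor, Psma8, Psmb11 and Psmb9, could not be compared with these counts. Whether their reads were lost in annotation or counting was not tested, so the counts do not show that their RNA was absent.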
